A study of Homo sapiens with 12 samples.

Results

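The genes described here carry out glycolysis or answer to low oxygen: glucose transporters, glycolytic enzymes, regulators of glycolytic flux, lactate transporters, the hypoxia-inducible factor subunit HIF1A with its prolyl hydroxylases, and genes that the factor induces. They were given as a list of 35 symbols. Each was read from the probe set with a single symbol that had the highest mean log2(signal + 3) over the 12 arrays. Such a probe set was found for 32 of the 35 genes, among 19775 genes on the array. A filter on low signal (mean signal of at least 12.55) was passed by 31 of them, among 11548 genes tested. PFKFB4, a relative of PFKFB3, lay below the filter with signals of 5.8 to 19.8, and the lactate transporters SLC16A1 and SLC16A3 and the carbonic anhydrase CA9 were not analysed here.

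Z-138 and Maver-1 are established human lines derived from mantle cell lymphoma, a tumour of B cells. The labels give a TRAF2 nonsense mutation for Z-138 and a TRAF3 deletion for Maver-1, so every group of a line carries its alteration. Cells held a hairpin induced by doxycycline, either NIKsh#1 or NIKsh#2 against MAP3K14, which encodes the kinase NIK, or the non-targeting control NTC, and all were kept under puromycin, the selection for the hairpins. Each of the 6 cultures was grown for 7 days with doxycycline at 100 ng/ml (DOX) or at 0 ng/ml (untreated), with 1 array per culture and condition. The groups were therefore NIKsh DOX and NIKsh untreated in each line (2 arrays per group, 1 per hairpin), and NTC DOX and NTC untreated in each line (1 array per group). Values are MAS5 signals, the linear probe set intensities as deposited, and log2 changes are on the log2(signal + 3) scale, which understates changes of genes with low signal.

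Glycolysis splits glucose into pyruvate and yields ATP without oxygen, and lactate dehydrogenase turns the pyruvate into lactate when it is not burnt in mitochondria. When oxygen is short, the prolyl hydroxylases stop marking HIF1A for destruction, and the factor binds short core motifs near genes of glucose uptake, glycolysis, vessel growth and mitochondrial turnover. B cells raise glucose uptake and glycolysis when they are activated, and NIK starts the alternative NF-kB pathway, which conveys survival and activation signals to B cells.

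The promoter windows of the 3 genes that passed a test with doxycycline in Z-138 NIKsh cultures are shown because their messages moved in opposite directions. Each is the run of 250 bases upstream of a RefSeq gene start (GRCh38.p14, plus strand, 5′ to 3′), and capitals mark the core of the hypoxia response element, searched as ACGTG or GCGTG on both strands. The windows are chr4:185396591-185396840 for ANKRD37, chr11:10304823-10305072 for ADM, and chr10:6144671-6144920 and chr10:6202682-6202931 for 2 starts of PFKFB3.
ANKRD37: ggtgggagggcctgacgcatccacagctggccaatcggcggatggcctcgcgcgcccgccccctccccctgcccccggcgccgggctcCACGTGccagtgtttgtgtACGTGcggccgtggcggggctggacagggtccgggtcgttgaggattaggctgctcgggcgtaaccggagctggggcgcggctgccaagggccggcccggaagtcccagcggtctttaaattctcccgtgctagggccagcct
ADM: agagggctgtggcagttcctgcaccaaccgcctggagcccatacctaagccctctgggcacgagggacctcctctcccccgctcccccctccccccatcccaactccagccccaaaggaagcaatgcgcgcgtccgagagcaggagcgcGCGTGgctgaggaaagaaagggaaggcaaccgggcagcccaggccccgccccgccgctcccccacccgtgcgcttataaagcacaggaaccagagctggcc
PFKFB3 upstream start: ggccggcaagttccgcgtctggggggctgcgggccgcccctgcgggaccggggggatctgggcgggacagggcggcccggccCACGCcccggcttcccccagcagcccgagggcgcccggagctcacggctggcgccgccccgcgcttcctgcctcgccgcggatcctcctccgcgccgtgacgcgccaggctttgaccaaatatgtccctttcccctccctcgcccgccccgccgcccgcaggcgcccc
PFKFB3 downstream start: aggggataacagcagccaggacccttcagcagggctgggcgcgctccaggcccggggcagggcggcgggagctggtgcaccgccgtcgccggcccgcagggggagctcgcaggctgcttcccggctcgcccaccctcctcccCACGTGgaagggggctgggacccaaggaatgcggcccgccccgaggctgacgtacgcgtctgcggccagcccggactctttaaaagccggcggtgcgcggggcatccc
The ANKRD37 window held 3 core matches, at -162, -161 and -143 from the gene start, the first pair being the same CACGTG read on both strands. The downstream PFKFB3 window held such a CACGTG at -108 and -107, and also 1 match to the NF-kB consensus, while the upstream PFKFB3 window held 1 core at -168 and the ADM window 1 core at -101. At least 1 core stood in 61.7% of the 60 windows of the listed genes, against 43.2% of all 35116 windows. Windows were found for 30 of the 35 genes, and 27 of these had a core in at least 1 window, while 47.4% of all 27305 symbols did. The shares per gene are not alike, because the listed genes had more windows each (60 for 30 genes, against 35116 for 27305 symbols). A gene with more windows has more places for a match. The ACGTG form alone stood in 38.3% of the windows of the listed genes and 18.5% of all windows, and the NF-kB consensus in 5.0% and 5.21%. A match describes letters and does not show that a factor binds there.

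Before the results, the labels and the arrays were checked. MAP3K14 had signals of 33.3, 49.2, 63.4 and 55.7 with DOX in Z-138 with NIKsh#1 and NIKsh#2 and Maver-1 with NIKsh#1 and NIKsh#2, against 55.2, 52.0, 86.9 and 79.3 in the same untreated cultures. In NTC it was 55.4 with DOX and 46.4 untreated in Z-138, and 132.7 and 77.2 in Maver-1. The 4 NIKsh changes all lay below the NTC changes (difference of -0.92 log2, exact permutation p = 0.0667, two-sided, the smallest that 15 arrangements allow), but the fall within NIKsh cultures did not pass in limma (-0.42 ± 0.18, adjusted p = 0.529). The 3' to 5' ratio of the ACTB control probe sets, a sign of RNA quality, was 4.62 to 6.34 with DOX and 2.33 to 2.92 untreated in Z-138. In Maver-1 it was 3.80 to 4.43 with DOX and 3.65 to 6.88 untreated, and it was higher with DOX in all 3 Z-138 cultures and in 1 of 3 Maver-1 cultures. Its part in the results was not tested. B cell markers were present in both lines, with MS4A1 highest (2767 or above) and CD22 lowest (29.4 to 97.6). Of markers of other cells, CD14, CSF1R, CD3D and CD3E were at 8.3 or below and LYZ at 25.3 or below. Others were well measured: CD247 at 55.6 to 92.1 in both lines, CD3G at up to 177.5 in Z-138, EPCAM at up to 314.4 in Maver-1, and PECAM1 at up to 397.0 in Z-138 and 929.1 in Maver-1. No label says that cultures were repeated, so p-values reflect the spread among the cultures at hand, which may be technical.

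Over the 4 NIKsh cultures of both lines, none of the 31 genes passed the threshold used throughout for the doxycycline change, an adjusted p under 0.05 in limma over all 11548 genes. The count was 0 members (5 at an unadjusted p under 0.05), where 5 genes or 0.0433% of all genes did (1037 at an unadjusted p under 0.05). The members' median change was -0.04, against 0.01 over all genes, with 14 of 31 higher and 17 lower. Because bulk RNA was measured, fewer cells of a kind and less RNA per cell cannot be told apart in any of these values.

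A few members kept 1 direction in all 4 NIKsh cultures. ALDOA, ALDOC, PDK1 and ANKRD37 were lower with DOX in 4 of 4, or 4 of 31 members (12.9%) where 8.29% of all genes were, and PFKFB3 and VEGFA were higher in 4 of 4, or 6.45% where 9.95% of all genes were. ALDOC, the aldolase isoform best known from brain, had signals of 22.2, 36.6, 90.1 and 81.9 with DOX in Z-138 with NIKsh#1 and NIKsh#2 and Maver-1 with NIKsh#1 and NIKsh#2, against 44.7, 42.9, 165.9 and 164.8 untreated. Its NTC signals were 34.1 with DOX and 32.9 untreated in Z-138, and 172.1 and 143.6 in Maver-1. The DOX arrays of the NIKsh cultures thus lay below their untreated partners, by least in Z-138 NIKsh#2, while both NTC cultures were slightly above theirs. The log2 change of ALDOC in NIKsh was -0.74 ± 0.19 (limma SE, adjusted p = 0.227). PDK1, the kinase that inhibits pyruvate dehydrogenase in mitochondria, had signals of 557, 429, 190.1 and 159.8 with DOX in the same NIKsh order, against 703, 590.4, 203 and 208 untreated (-0.31 ± 0.12, adjusted p = 0.461). In NTC its signal was 817 with DOX and 787 untreated in Z-138, and 218.6 and 173.7 in Maver-1. ALDOA, the main aldolase of most cells, moved least of these, between -0.19 and -0.01 per culture. These counts hold for the probe sets used: another PDK1 probe set was higher with DOX in Maver-1 NIKsh#1 (0.26), and of 2 other ALDOA probe sets 1 was higher in Maver-1 NIKsh#1 (0.14) and 1 in Z-138 NIKsh#2 (0.04).

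VEGFA, the vessel growth factor, had signals of 611, 480.3, 372 and 299 with DOX in Z-138 with NIKsh#1 and NIKsh#2 and Maver-1 with NIKsh#1 and NIKsh#2, against 537, 388, 280.2 and 250.5 untreated (0.29 ± 0.12, adjusted p = 0.497). In NTC it was 650.1 with DOX and 513 untreated in Z-138, and 253.7 and 258.9 in Maver-1. Its other abundant probe set did not follow in Z-138, with signals of 143.6 and 145.7 with DOX in NIKsh#1 and NIKsh#2 against 215.7 and 173.1 untreated, whereas in Maver-1 both were higher with DOX. The direction of VEGFA in Z-138 therefore depends on the probe set read. HIF1A itself had signals of 2374, 1956, 2578 and 2264 with DOX in the 4 NIKsh cultures, against 1887, 1700.2, 2310.0 and 2474 untreated. Its protein, not its message, is the usual point of oxygen control. HIF1A was higher with DOX in 3 of 4 NIKsh cultures (0.14 log2 on average) and lower in both NTC cultures.

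**Figure D1:**
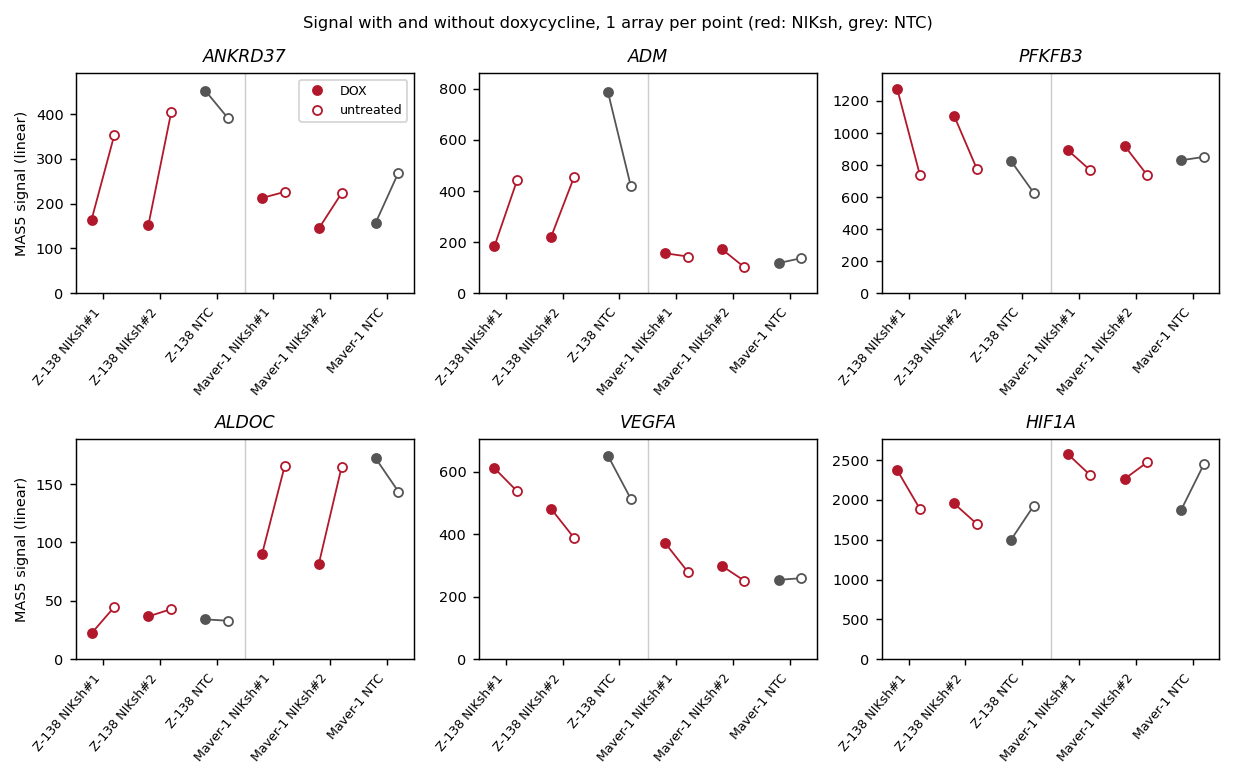
MAS5 signal (linear axis from 0) of ANKRD37, ADM, PFKFB3, ALDOC, VEGFA and HIF1A in each of the 6 cultures, with the DOX array (filled) left of the untreated array (open), 1 array per point, NIKsh in red and NTC in grey. ANKRD37 and ADM are lower with DOX in both Z-138 NIKsh cultures but not in Z-138 NTC, and ANKRD37 is also lower in all Maver-1 cultures, NTC included. PFKFB3 is higher with DOX in all NIKsh cultures and in Z-138 NTC, and ALDOC is lower in all NIKsh cultures.

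In Z-138 alone, the 2 NIKsh cultures gave 3 members past the threshold, ANKRD37 and ADM lower and PFKFB3 higher. That is 9.68% of the 31 members, where 247 genes or 2.14% of all genes passed. By direction, 2 members (6.45%) fell, where 1.08% of all genes fell, and 1 (3.23%) rose, where 1.06% of all genes rose. The members' median was -0.04, against 0.03 over all genes. The ACTB ratio was also higher with DOX in these cultures, at 4.62 against 2.86 in NIKsh#1 and 5.09 against 2.92 in NIKsh#2.

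ANKRD37, an ankyrin repeat protein known as a target of the hypoxia factor (chr4:185396841-185400723), had signals of 164.5 and 152.5 with DOX in Z-138 NIKsh#1 and NIKsh#2, against 353.6 and 403.8 untreated. Both DOX arrays lay well below both untreated arrays, and the Z-138 NTC culture moved the other way, with 452.7 with DOX and 391.1 untreated. ANKRD37 fell by 1.24 ± 0.20 on the log2 scale in Z-138 NIKsh (0.424-fold, adjusted p = 0.0187). In Maver-1 its signals were 212.8 and 144.7 with DOX in NIKsh#1 and NIKsh#2 and 157.5 in NTC, against 226.4, 223.4 and 269.5 untreated. All 3 Maver-1 cultures were lower with DOX, NTC by the most, at -0.76 log2. A second ANKRD37 probe set lay near the bottom of the scale on every array (mean signal 1.44) and could not be used to check it. Averaging both, the change in Z-138 NIKsh no longer passed (-0.64, adjusted p = 0.182).

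ADM, the precursor of the vessel-widening peptide adrenomedullin (chr11:10305073-10307397), had signals of 183.4 and 221.6 with DOX in Z-138 NIKsh#1 and NIKsh#2, against 442.6 and 453.6 untreated. In Z-138 NTC the DOX array was instead the highest of all, at 786.0 against 419.6 untreated. ADM fell by 1.14 ± 0.21 in Z-138 NIKsh (0.454-fold, adjusted p = 0.0322). In Maver-1 its signals were 156.5 and 173.1 with DOX in NIKsh#1 and NIKsh#2 and 117.9 in NTC, against 143.6, 101.3 and 136.9 untreated. Both NIKsh DOX arrays there lay above all other arrays of the line, and the change did not pass (0.44 ± 0.21, adjusted p = 0.998).

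PFKFB3, which makes the allosteric activator of phosphofructokinase and so speeds glycolysis (chr10:6144921-6326637), had signals of 1275 and 1109 with DOX in Z-138 NIKsh#1 and NIKsh#2, against 737 and 777 untreated. It rose by 0.65 ± 0.12 log2 (1.57-fold, adjusted p = 0.0343). The Z-138 NTC culture was also higher with DOX, at 826.5 against 627.6 untreated, though below both NIKsh DOX arrays. In Maver-1 its signals were 893.7 and 920.7 with DOX in NIKsh#1 and NIKsh#2 and 830.0 in NTC, against 766.8, 737.0 and 850.9 untreated. Without Z-138 NIKsh#1 the change of PFKFB3 was 0.51 and its adjusted p 0.0636, in a fit that leaves 1 NIKsh culture in the line and takes its spread to be that of the other groups. With no intensity trend in the variance 0 of the 3 members passed, with an adjusted p of 0.124 for ADM and 0.165 for PFKFB3.

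The other members in Z-138 NIKsh did not pass. HIF1A stood at 0.27 ± 0.09 (adjusted p = 0.184), MXI1, an antagonist of MYC, at -0.37 ± 0.13 (adjusted p = 0.205) and PDK1 at -0.40 ± 0.17 (adjusted p = 0.29). The 15 glycolytic enzymes had a median of -0.09 over both hairpins, and 10 of them were lower, where 5265 of 11548 genes were. Of these 10, 8 were among the 9 enzymes of upper glycolysis. The hairpins were unlike: 9 of the 15 were lower in NIKsh#1 and 6 in NIKsh#2, with medians of -0.07 and 0.06. Of the 9 upper enzymes, 7 were lower in NIKsh#1 and 5 in NIKsh#2. Several members differed between the hairpins. SLC2A3, a glucose transporter with high affinity, stood at 1.20 in NIKsh#1 and 0.10 in NIKsh#2. Its probe set may also read its near copy SLC2A14, a possibility that was not tested. The 2 other SLC2A3 probe sets stood at 1.48 and 1.53 in NIKsh#1 and at -1.10 and -0.51 in NIKsh#2. HK1 stood at 0.08 in NIKsh#1 and 0.95 in NIKsh#2, NDRG1 at 1.08 and -0.02, and PFKL at -0.74 and 0.31.

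In the Maver-1 NIKsh cultures 0 members passed in limma (3 at an unadjusted p under 0.05), where the share over all genes was also 0.0% (0 genes, 459 at an unadjusted p under 0.05). ALDOC had the smallest p, at -0.92 ± 0.26 (adjusted p = 0.998), followed by GAPDH at -0.17 ± 0.07 and PFKP, the platelet-type phosphofructokinase, at -0.43 ± 0.17. PFKP had signals of 240.2 and 164.7 with DOX in NIKsh#1 and NIKsh#2, against 288.6 and 250.5 untreated. Of the 15 glycolytic enzymes, 14 were lower with DOX in Maver-1 NIKsh#2, with a median of -0.22, while all genes had a median of -0.03 in that culture. In Maver-1 NIKsh#1 11 of the 15 were lower, with a median of -0.03, and in Maver-1 NTC 10 of 15, with a median of -0.05.

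Whether the NIKsh effect differed between the lines was tested directly. No member passed (0, with 3 at an unadjusted p under 0.05), where 14 genes or 0.121% of all genes passed in limma. ADM had the smallest p, with an effect in Z-138 lower than in Maver-1 by 1.58 ± 0.30 log2 (difference -1.58, adjusted p = 0.168). Over the alternatives the ADM difference ran between -1.90 and -1.26. Fits without a NIKsh culture leave 1 in its line and take its spread to be that of the other groups. Calls from such fits are not read here. The difference was -0.89 ± 0.29 for ANKRD37 (adjusted p = 0.452) and 0.38 ± 0.18 for PFKFB3 (adjusted p = 0.597), so for these the effect is not shown to differ between the lines.

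**Figure D2:**
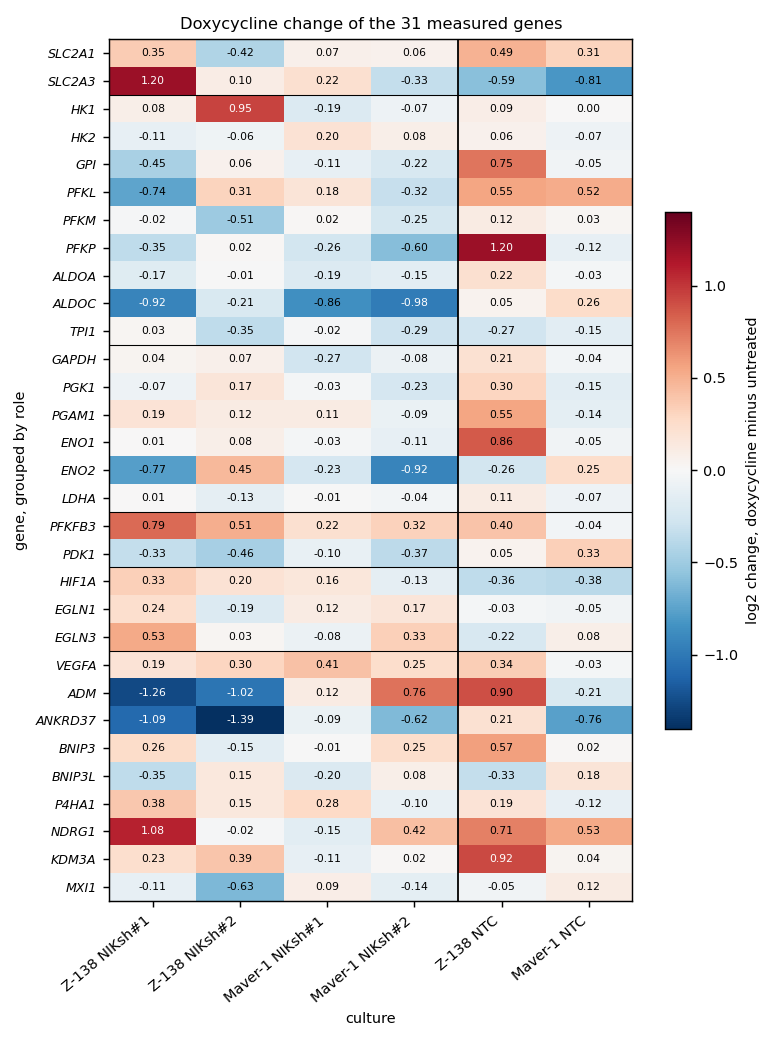
Log2 change of the 31 measured genes (rows, grouped by role with black lines) with doxycycline against untreated in each culture (columns, NIKsh left and NTC right of the vertical line), 1 pair of arrays per cell. Cells run between -1.39 and 1.20: ANKRD37 and ADM stand out as low in the Z-138 NIKsh cultures, ALDOC as low in 3 of 4 NIKsh cultures, and Z-138 NTC is higher for 23 of the 31 genes.

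The NTC cultures show what induction does without a hairpin against MAP3K14. In limma 0 members passed (2 at an unadjusted p under 0.05), and over all genes 0 or 0.0% did (387 at an unadjusted p under 0.05). HIF1A had the smallest p, with signals of 1496 with DOX and 1925 untreated in Z-138 NTC and 1879 and 2454 in Maver-1 NTC (-0.37 ± 0.11, adjusted p = 0.895). The NTC cultures of the lines were unlike. In Z-138 NTC 23 of 31 members were higher with DOX, with a median of 0.21, where all genes had a median of 0.07, and in Maver-1 NTC 13 of 31 were higher, with a median of -0.04. The largest values in Z-138 NTC were those of PFKP, with signals of 1488 with DOX and 644.5 untreated, and of KDM3A, a histone demethylase induced by hypoxia, with 567.9 and 297.7. ENO1, the common enolase, had 2302 with DOX and 1268 untreated, and GPI, the glucose phosphate isomerase, 1618 and 958.7. The ENO1 signal of the untreated array was below that of all other 11 arrays, which ran between 1902 and 2375. The Z-138 NTC pair was also the one whose ACTB ratio differed most, 6.34 with DOX against 2.33 untreated, with a GAPDH ratio of 2.00 against 1.17.

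Set against NTC over both lines, the NIKsh effect passed for 0 members in limma (6 at an unadjusted p under 0.05), and for 0 or 0.0% of all genes (627 at an unadjusted p under 0.05). The members' median difference was -0.21, against -0.03 over all genes, and 21 of 31 differences were negative. HIF1A had the smallest p (0.51 ± 0.14, adjusted p = 0.876), followed by ALDOC (-0.90 ± 0.32) and PFKP (-0.84 ± 0.33). The NTC changes of PFKP were 1.20 in Z-138 and -0.12 in Maver-1.

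A comparison of NIKsh with NTC within Z-138 was added after the values had been seen. With a single NTC culture in the line, its SE and p-values reflect the spread between NIKsh hairpins and none between NTC cultures. The comparison called 1 member, ENO1, or 3.23%, where 68 genes or 0.589% of all genes passed. The ENO1 difference was -0.81 ± 0.13 (adjusted p = 0.0363), yet its NIKsh signals hardly moved: 2069 and 2011 with DOX in NIKsh#1 and NIKsh#2, against 2057 and 1902 untreated. By culture the change was 0.01 and 0.08 in the NIKsh cultures and 0.86 in the single Z-138 NTC culture, whose untreated array was low. A second ENO1 probe set had 1652 with DOX and 1076.5 untreated in that culture, and another had 265.7 and 400.7. ADM differed by -2.04 ± 0.37 (adjusted p = 0.0542), PFKP by -1.37 ± 0.29 (adjusted p = 0.0849), ANKRD37 by -1.45 ± 0.35 (adjusted p = 0.111) and PFKFB3 by 0.26 (adjusted p = 0.603). Of the 3 members called in Z-138 NIKsh, none passed here, but ADM lay close to the threshold. ADM passed in 8 of 15 alternatives and ANKRD37 in 3 of 15, in part in fits that leave out a NIKsh culture. This comparison shares its NIKsh arrays with the one above and is not separate evidence.

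The larger differences among these genes lay between the untreated lines, 3 cultures each. In limma 23 of 31 members passed (74.2%), where 60.2% of all genes did. Of the members 12 were higher in Z-138 (38.7%, where 25.5% of all genes were) and 11 lower (35.5%, where 34.8% of all genes were). Over all 6 arrays of a line, 10 members lay wholly above Maver-1 in Z-138 (32.3%, where 16.7% of all genes did) and 4 wholly below (12.9%, where 20.1% of all genes did). Line and everything else that differs between these cell lines cannot be told apart here.

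The glucose transporters differed between the lines in opposite directions. SLC2A1, the widespread basal transporter, had untreated signals of 77.6, 126.0 and 76.9 in Z-138 NIKsh#1, NIKsh#2 and NTC, against 264.2, 254.6 and 279.7 in Maver-1, and was lower in Z-138 (-1.52 ± 0.18, adjusted p = 7.95e-06). SLC2A3 had 55.3, 60.7 and 64.9 in Z-138, against 6.9, 7.9 and 8.9 in Maver-1. Its Maver-1 signals lay below the median signal of every array (10.6 to 14.1), so it passed the filter only through Z-138, where it is high. Its line difference is therefore a description with no test, although it is counted among the members above.

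Isoforms of the early kinases differed between the lines in the same crosswise manner. HK1, the ubiquitous hexokinase, averaged 51.4 ± 8.1 in Z-138 and 144.0 ± 27.7 in Maver-1 (SD, n = 3 each, log2 difference -1.43 ± 0.18), and HK2, the inducible hexokinase, 1818 ± 77.1 in Z-138 and 1323 ± 95.3 in Maver-1 (0.46 ± 0.08). PFKL, the liver-type phosphofructokinase, averaged 66.9 ± 7.7 in Z-138 and 119 ± 15.6 in Maver-1 (-0.81 ± 0.16). Another PFKL probe set differed by only -0.21, and its arrays overlapped, with signals of 37.6 to 79.9 in Z-138 and 56.9 to 93.2 in Maver-1. PFKM, the muscle-type subunit, had untreated signals of 1456, 1385 and 1359.7 in Z-138 NIKsh#1, NIKsh#2 and NTC, against 552.7, 454.9 and 585.8 in Maver-1 (1.4 ± 0.1, adjusted p = 6.57e-08). PFKP averaged 683 ± 61.9 in Z-138 and 303 ± 60.8 in Maver-1 (1.18 ± 0.14). Each isoform is a different probe set, so these values compare lines within a gene and not genes with each other.

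**Figure D3:**
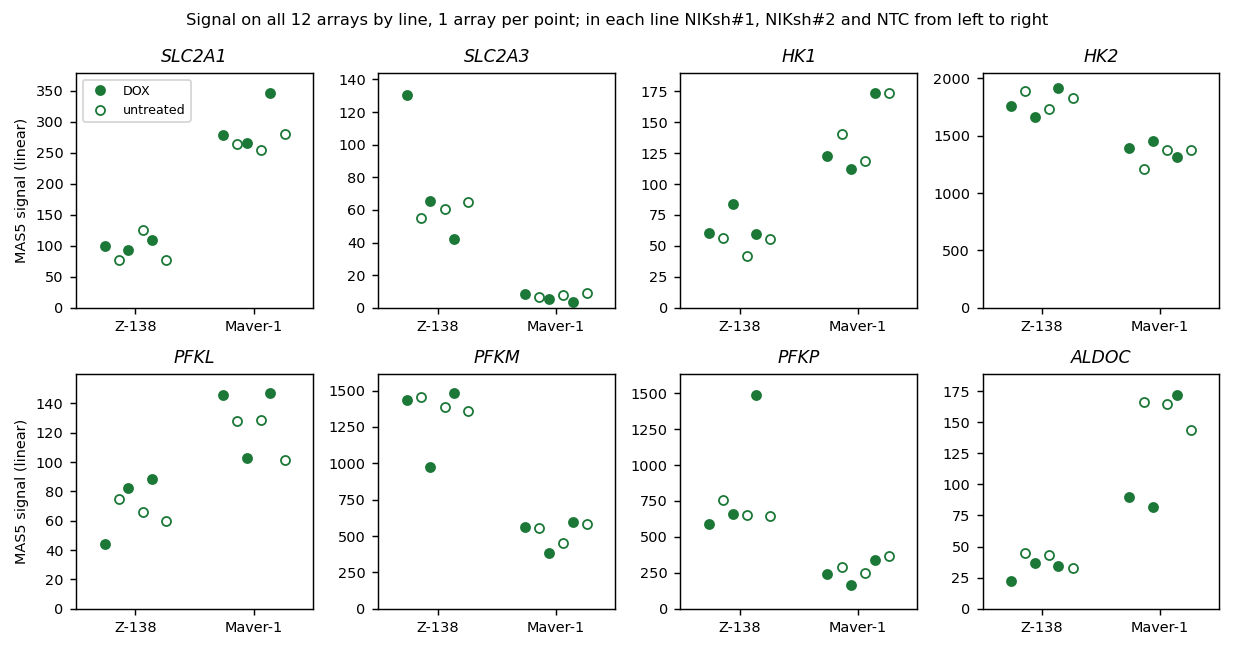
MAS5 signal (linear axes from 0, 1 scale per gene) of glucose transporters, hexokinases, phosphofructokinases and ALDOC on all 12 arrays, by line, with DOX arrays filled and untreated arrays open. In the probe sets used, the 6 Z-138 arrays and the 6 Maver-1 arrays do not overlap for any of these 8 genes. SLC2A1, HK1, PFKL and ALDOC are lower and SLC2A3, HK2, PFKM and PFKP higher in Z-138.

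Among the remaining enzymes ALDOC differed most between the lines. It had untreated signals of 44.7, 42.9 and 32.9 in Z-138 NIKsh#1, NIKsh#2 and NTC, against 165.9, 164.8 and 143.6 in Maver-1 (-1.91 ± 0.17, adjusted p = 4.93e-07). TPI1, the triose isomerase, was higher in Z-138 (0.36 ± 0.07), and GPI (-0.47 ± 0.08), PGK1, which makes ATP (-0.32 ± 0.07), ENO1 (-0.43 ± 0.14) and the neuronal enolase ENO2 (-0.54 ± 0.20) were lower. Without the Z-138 NTC culture, whose untreated ENO1 signal was low, the ENO1 difference was -0.21 and still passed, and without Maver-1 NTC it did not. ALDOA was lower by little (-0.16 ± 0.06, adjusted p = 0.0413) and lost its call in several settings. GAPDH (0.07 ± 0.07), PGAM1 (-0.11 ± 0.08) and LDHA (-0.03), which closes the pathway at lactate, did not pass. LDHA ran between 3220.1 and 4157 over all 12 arrays.

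Among regulators and hypoxia genes the larger line differences were higher in Z-138. PDK1 had untreated signals of 702.7, 590.4 and 787.0 in Z-138 NIKsh#1, NIKsh#2 and NTC, against 203.4, 207.6 and 173.7 in Maver-1 (1.81 ± 0.13, 3.5-fold, adjusted p = 5.69e-08). ADM had 442.6, 453.6 and 419.6 in Z-138, against 143.6, 101.3 and 136.9 in Maver-1 (1.78 ± 0.14), a difference that no longer passed on the arrays with DOX (1.09, adjusted p = 0.101). BNIP3L, a receptor for the removal of mitochondria, averaged 666 ± 54.9 in Z-138 and 339 ± 17.3 in Maver-1 (0.97 ± 0.10), whereas its relative BNIP3 did not differ beyond the threshold (0.10 ± 0.13). NDRG1, a stress and differentiation gene, averaged 53.9 ± 8.3 in Z-138 and 20 ± 3.7 in Maver-1 (1.31 ± 0.21), and VEGFA 479 ± 79.7 and 263 ± 15.3 (0.85 ± 0.13). ANKRD37 (0.67 ± 0.12) and the prolyl hydroxylase EGLN3 (0.37 ± 0.13) were higher too.

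Lower in Z-138 were HIF1A, which averaged 1837 ± 120.4 in Z-138 and 2413 ± 89.5 in Maver-1 (SD, n = 3 each, log2 difference -0.39 ± 0.07, adjusted p = 0.000233), and the collagen prolyl hydroxylase P4HA1 (-0.33 ± 0.09). PFKFB3, EGLN1, KDM3A and MXI1 did not pass, at -0.14, -0.12, -0.17 and -0.17. Of 12 members called here that have another probe set above the filter, 9 had the same sign in all of them, and EGLN3, ENO1 and PGK1 did not. On the 6 arrays with DOX, 14 members passed, 13 of them shared with the 23, and ANKRD37, ENO1, GPI, HIF1A and PGK1 were among those lost. Calls over all 11548 genes were also fewer there, at 4194 against 6956 untreated, so the losses are not particular to these genes.

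**Figure D4:**
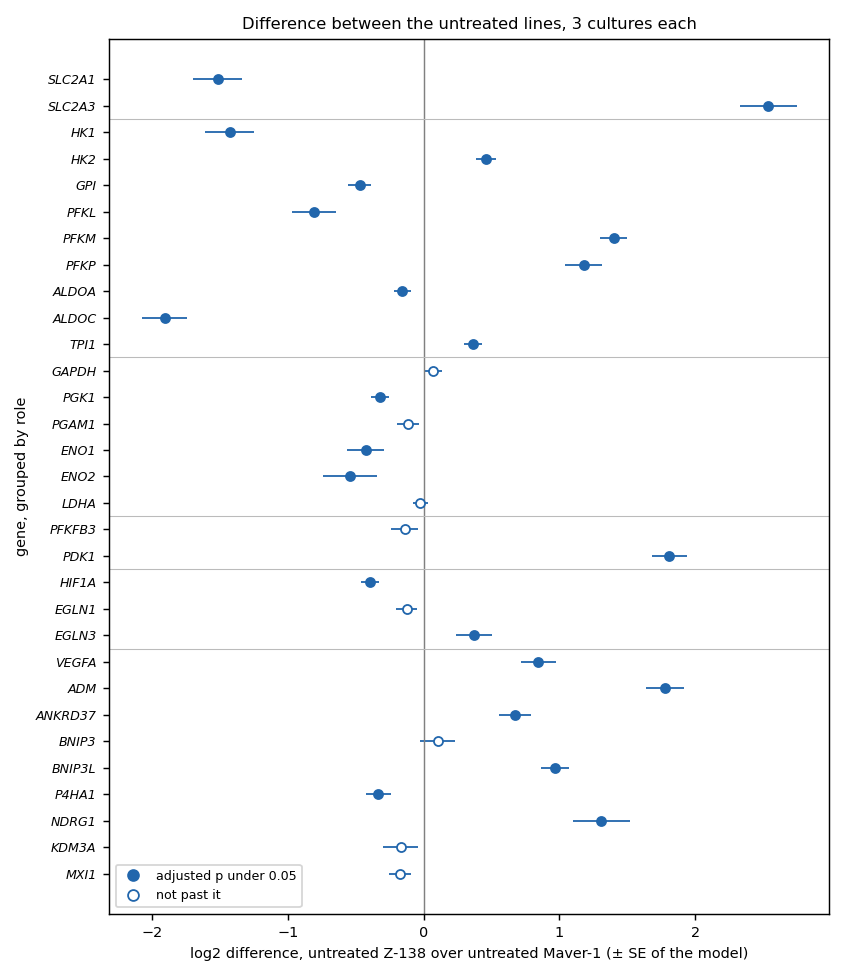
Log2 difference of untreated Z-138 over untreated Maver-1 cultures for each of the 31 measured genes (points, ± SE of the limma model, 3 cultures a line), grouped by role from glucose transporters at the top to hypoxia-induced genes at the bottom. Filled points mark the 23 genes past the threshold, and values run between -1.91 for ALDOC and 2.54 for SLC2A3, whose Maver-1 signals lay below the array medians.

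Without doxycycline the NIKsh cultures were also set against NTC, with the line as a term. In limma 0 members passed (1 at an unadjusted p under 0.05), and 0 or 0.0% of all genes did (552 at an unadjusted p under 0.05). The member with the smallest p was ENO1 at 0.28 ± 0.13 (adjusted p = 0.989), which again rests on the low untreated Z-138 NTC array: without that culture the value was -0.08. Without Maver-1 NTC, ENO1 passed, at 0.64 (adjusted p = 0.0147).

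Other genes of the same pathways gave few calls with doxycycline and many between the lines. Of 42 further glycolysis genes 33 were tested, and 0 passed in limma in any doxycycline comparison, while between the untreated lines 8 were higher and 11 lower in Z-138, where 25.5% and 34.8% of all genes were. The fructose transporter SLC2A5 had a difference of -2.41 between the lines. FBP1, which runs glycolysis backwards at fructose bisphosphate, had signals of 3.9 to 9.2 in Z-138, below the median of every array, against 61.4 to 183.9 in Maver-1. It passed the filter only through Maver-1, where it is high. Its line difference is therefore a description with no test, although it is counted among the 11 lower genes. PFKFB2, the heart-type relative of PFKFB3, had a Z-138 NTC signal of 3.1 with DOX, also below the array medians, and 24.5 untreated. Of 47 further hypoxia genes 32 were tested. In Z-138 NIKsh 2 of the 32 rose and 1 fell, where 1.06% of all genes rose and 1.08% fell. BHLHE40, a clock and stress transcription factor, had signals of 593.7 and 931.3 with DOX in NIKsh#1 and NIKsh#2, against 331.1 and 282.0 untreated, and rose by 1.27 ± 0.22 (adjusted p = 0.0214). HMOX1, the haem oxygenase, had 54.0 and 103.1 with DOX, against 25.4 and 27.9 untreated (1.39 ± 0.26, adjusted p = 0.0326). In Maver-1 NIKsh#1 and NIKsh#2 the log2 change was -0.48 and -0.53 for HMOX1, and -0.13 and 0.06 for BHLHE40. In Z-138 and Maver-1 NTC it was -0.24 and -0.09 for HMOX1, and -0.26 and -0.21 for BHLHE40. The NIKsh effect did not differ between the lines past the threshold in limma (adjusted p = 0.176 for HMOX1 and 0.273 for BHLHE40). P4HA2, a collagen prolyl hydroxylase, had 16 and 5.2 with DOX, against 33.2 and 32.3 untreated (-1.52 ± 0.32, adjusted p = 0.0482), and was lower with DOX in Z-138 NTC as well, at 17.2 against 34.0. The lowest of these signals lay below the array medians, so the size of its fall is uncertain. Hypoxia-linked genes of both lists thus moved in both directions in Z-138 NIKsh cultures. Between the untreated lines 12 of the 32 were higher and 11 lower in Z-138, or 23 of 32, where 60.2% of all genes passed. The 4 with the smallest p in limma were all lower in Z-138: BMAL1, HMOX1 (-2.1), P4HA2 (-1.87) and GYS1 (-1.84). BMAL1 had signals of 8.0 or below in Z-138, under the array medians, so its line difference is a description with no test, although it is counted above.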

How the data were processed

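Total RNA of 12 cultured samples was amplified with NuGen Ovation kits and labelled with biotin, per the labels' protocols, and hybridised to 1 Affymetrix array each. The deposited values are linear intensity per probe set, made with MAS5 per the submitters' processing notes. On every array the mean without the lowest and highest 2% of probe sets was 150.02, so the authors' scaling was kept. Of 54675 probe sets 41097 had 1 symbol in the platform annotation, 1801 several and 11777 none. Of the probe sets with 1 symbol, 41043 were matched to RefSeq (GRCh38.p14) by gene identifier, and 62 control probe sets were left out. Signals were taken to log2(signal + 3), and genes averaging less than 12.55 (the middle of the array medians) were dropped. The number of arrays limits precision.

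Models were fitted with limma 3.58.1 (R 4.3.3) with an intensity trend, two-sided, with Benjamini-Hochberg adjustment over 11548 genes at 0.05, and tested on simulated data. Culture was a fixed block, since per the labels each culture was split between media. The deviations of the paired NIKsh arrays from their group means had a correlation across genes of -0.0381 for Z-138 and 0.202 for Maver-1. One model had effects for NIKsh and NTC, another an effect per line and knockdown, and the untreated arrays were compared by line, and by construct with line as a term. In tables and figures Python 3.11.15, pandas 2.3.3 and matplotlib 3.10.9 were used.

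The genes and lists were chosen with earlier results of these data known. Any of the 35 genes could be named, and of the other lists those that passed and up to 4 per comparison with the smallest p. Alternatives changed pseudocount, filter, scaling, probe set choice, block, variance trend, array weights and cultures.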

Additional observations from a re-analysis of the deposited data

Results flagged for a closer look

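Of the 31 measured genes, 1 had a NIKsh culture far from the other NIKsh cultures. The ALDOC change with doxycycline was -0.21 in Z-138 NIKsh#2, while the other 3 NIKsh cultures lay between -0.98 and -0.86. The gap was 0.839 of the whole range, past Dixon's critical value for 4 samples. Chance flags about 1 in 20 such groups, and 31 genes were examined.

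The doxycycline effect on ENO1 differed between NIKsh and NTC within Z-138, by -0.81 log2 in the tested contrast. The only NTC culture of the line set this value, with signals of 2302 with DOX and 1268 untreated, and the ACTB 3' to 5' ratio of that pair was 6.34 with DOX and 2.33 untreated. The part of the ratio in the difference was not tested.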

How the results depend on the processing

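The precision is limited by 1 array per culture and condition and by 2 to 4 residual degrees of freedom. In Z-138 NIKsh 3 members were called, against 1 with the filter at the 75th percentile of signal (of the genes left there), 1 with the average of probe sets, 1 with array weights and 0 with no intensity trend. Without a replicate block, and with culture as a random replicate block, 3 were called. For the difference of the NIKsh effect between lines, the ADM value ran between -1.90 and -1.26 over the alternatives. Fits without a NIKsh culture leave 1 in its line and take its spread to be that of the other groups. Their counts, here and below, are therefore not read as a firmer effect. For NIKsh minus NTC in Z-138, a comparison added after seeing the data, 1 member was called, against 2 with pseudocount 16, 2 without the replicate block and 2 with the random replicate block. It was 0 with no filter, quantile normalization, the average of probe sets and no intensity trend, and 5 with median scaling of the arrays, which moved the median of all genes to -0.31 as against -0.05. Leaving out a culture gave 1 to 6 there, with 4 without Z-138 NIKsh#1, 6 without Z-138 NIKsh#2 and 5 without either Maver-1 NIKsh culture. Between the untreated lines 23 were called, against 13 with the 75th percentile filter (fewer members tested) and 14 on arrays with doxycycline. On the latter arrays 4194 of all 11548 genes passed, against 6956 untreated. For untreated NIKsh over NTC leaving out a culture gave 0 to 1, the 1 being ENO1 without Maver-1 NTC. ENO1 turned direction without Z-138 NTC, with a range of -0.048 to 0.859 for doxycycline in NTC, and of -0.078 to 0.64 for untreated NIKsh over NTC. Over all genes the alternatives gave 23 (no intensity trend) to 918 (without Z-138 NIKsh#1) calls in Z-138 NIKsh against 247, 0 to 18 in NIKsh against 5, 0 to 42 in Maver-1 NIKsh against 0, 0 to 423 for the line difference against 14, 0 to 1110 for NIKsh minus NTC in Z-138 against 68, 0 to 108 for untreated NIKsh over NTC against 0, and 2999 to 7279 between the untreated lines against 6956. The 2999 calls came with the 75th percentile filter, where 4944 genes were tested and not 11548. Repeats of single values covered each member and comparison with an unadjusted p under 0.05 in the main limma fit, passed or not. Of these repeats, 824 kept direction and side of the threshold, 45 lost a call, 28 gained a call and 2 turned direction. Some of the gains were in fits without a NIKsh culture. The causes were not tested.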
